A study of Bos taurus with 138 samples.

Results

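The genes described here are 54 of the 16706 gene symbols counted in bovine oocytes and preimplantation embryos: the acid hydrolases of the lysosome, the activator proteins of its lipid hydrolases, the proteins of its membrane and the subunits of its proton pump. They were chosen by symbol and by no threshold on a measured value, though with earlier results of these data known. They are 11 cathepsins and related proteases, 16 glycosidases and sulfatases, 7 lipid hydrolases and activators, 8 membrane and cholesterol proteins, 5 membrane (V0) and accessory subunits of the pump and 7 subunits of its cytoplasmic (V1) part. All 54 symbols were found in the table, and 54 passed the filter on low counts. The study asked which mRNAs are loaded with ribosomes at each of 6 stages, namely GV oocytes (germinal vesicle, before maturation), MII oocytes (metaphase II, mature), and 2-cell, 8-cell, morula and blastocyst embryos. At each stage lysates of pooled oocytes or embryos were spun through sucrose gradients A and B, each cut into 10 fractions from light (F1) to heavy (F10), and 3 whole-cell transcriptomes (A, B and C) were sequenced. Polysome pools are the counts of F8 to F10 summed within a gradient, so that a stage has 2 pools and 3 transcriptomes. All groups were Bos taurus from slaughterhouse ovaries. GV oocytes were used before maturation, MII oocytes were matured in vitro, and embryos came from matured oocytes fertilised in vitro with semen of 1 Holstein bull. Cycloheximide, which stops ribosomes on the mRNA, was added to the culture of oocytes and embryos before collection, and the zona was then removed. The drug was also in the lysis buffer and in the gradients. There was no untreated or mutant group, and the stages are the only conditions. The study calls the 2 gradients of a stage biological replicates. Each transcriptome came from a pool of oocytes or embryos of the batches used for the gradients, so the spread between transcriptomes may be in part technical, and the fractions of 1 gradient share a lysate.

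The lysosome is the acidic compartment in which a cell degrades proteins, glycans and lipids taken up from outside or delivered by autophagy. Its enzymes are made on ribosomes at the endoplasmic reticulum and are carried through the Golgi, many of them by mannose 6-phosphate receptors, and most work only at the low pH that the V-type ATPase sets up by pumping protons. The V1 part of this pump splits ATP in the cytoplasm and the V0 part carries protons through the membrane. In the early embryo, autophagy and lysosomal breakdown of stored maternal proteins are known to be needed for development beyond the first cleavages.

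Levels are library-scaled counts (CPM) with TMM factors, which adjust for differences in composition. A CPM is a share of the library, so it grows with the length of the mRNA. Tests are made within a gene, and where CPM are added up over genes, long and abundant mRNAs weigh more, while fewer cells of a type cannot be told apart from less RNA per cell. The total of the pools lay between 22543733 and 39380640 counts, and that of the transcriptomes between 3269385 and 11812541 counts. Some libraries stood apart. In 8-cell gradient A, 11 of the 54 genes had no count in the polysome pool, against 3 in gradient B. Morula pool B held 17106 CPM of the list and pool A 8462 CPM. The 8-cell transcriptome A held 7034 CPM, against 4610 and 4664 CPM in B and C, and its summed level of 17 cumulus and granulosa markers was 1515 CPM, the highest among the 8-cell transcriptomes (lowest 310.6 CPM), while the 8-cell pools held 96.8 and 188.7 CPM. This sum was also higher in both pools than in every transcriptome of GV oocytes (949 to 979 against 579 to 719.6 CPM) and of 2-cell embryos (802 to 1107 against 424 to 473 CPM), overlapped in MII oocytes and morulae, and was lower in both pools of blastocysts (175 to 182 against 311 to 932 CPM). Most of the GV and 2-cell sums was 1 gene, STAR. Its mean was 898.8 CPM in GV pools and 543.1 CPM in GV transcriptomes, and 858.5 and 254.7 CPM in those of 2-cell embryos. These 2 higher sums therefore describe STAR and not the markers as a class. The 11 blood and macrophage markers summed to at most 25.5 CPM in every transcriptome and to 1.39 to 238.4 CPM in the pools, where CSF1R or CD14 was the highest of them at every stage and 5 to 9 of the 11 were at 0 in both pools. The 6 sperm markers summed to at most 5.602 CPM in every library. The labelled cells were checked by 11 oocyte markers, all at 1 CPM or more in every library of GV, MII and 2-cell stages, and by 10 trophectoderm and inner cell mass markers, which summed to 5164 to 6500 CPM in blastocyst transcriptomes and 77.5 to 87.5 CPM in GV transcriptomes. The part of these other-cell markers in the results below was not tested.

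More lysosomal genes were higher than lower in polysomes relative to the transcriptome at 5 of the 6 stages, and the counts were nearly level in 8-cell embryos. The comparison asks which mRNAs take a larger share of the polysome pools than of the transcriptomes. A gene was called at an adjusted p under 0.05 in edgeR's quasi-likelihood test over 14612 genes. The 2 kinds of library also differed in preparation. Pools are sums of fraction libraries from a cleared lysate spun through a gradient, and transcriptomes came from smaller pools of oocytes or embryos without a gradient. Polysome loading cannot be told apart from this difference in preparation, which was not tested. In GV oocytes 21 of the 54 were higher and 6 lower, where 22.2% of all genes tested were higher and 17.7% lower. In MII oocytes 29 were higher and 10 lower, against 30.8% and 26.7% of all genes. In 2-cell embryos 25 were higher and 5 lower (all genes 29.1% and 21.9%), and 3 were lower without pool A. In 8-cell embryos 18 were higher and 19 lower (28% and 31%), with 11 lower when that stage was fitted alone. Morulae had 27 higher and 9 lower (26.5% and 25.2%), a split that rested on pool B, since 15 were higher and 15 lower without it. In blastocysts 23 were higher and 5 lower (20% and 20.1%). The shares of the list that were higher, in the order of the stages, were 38.9%, 53.7%, 46.3%, 33.3%, 50% and 42.6%. The median log2 fold change of the 54 was 1.14, 2.26, 1.29, 0.51, 1.64 and 1.80, against 0, 0, 0.18, -0.26, 0 and -0.08 for all genes tested. Scaled to library totals alone, 39.9% of all called genes were higher in blastocysts in place of 49.9%, and the median of all genes there was -0.42. The study itself picked the lysosome as a pathway with high polysome occupancy on these samples, so the direction of the list is not independent evidence.

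**Figure D1:**
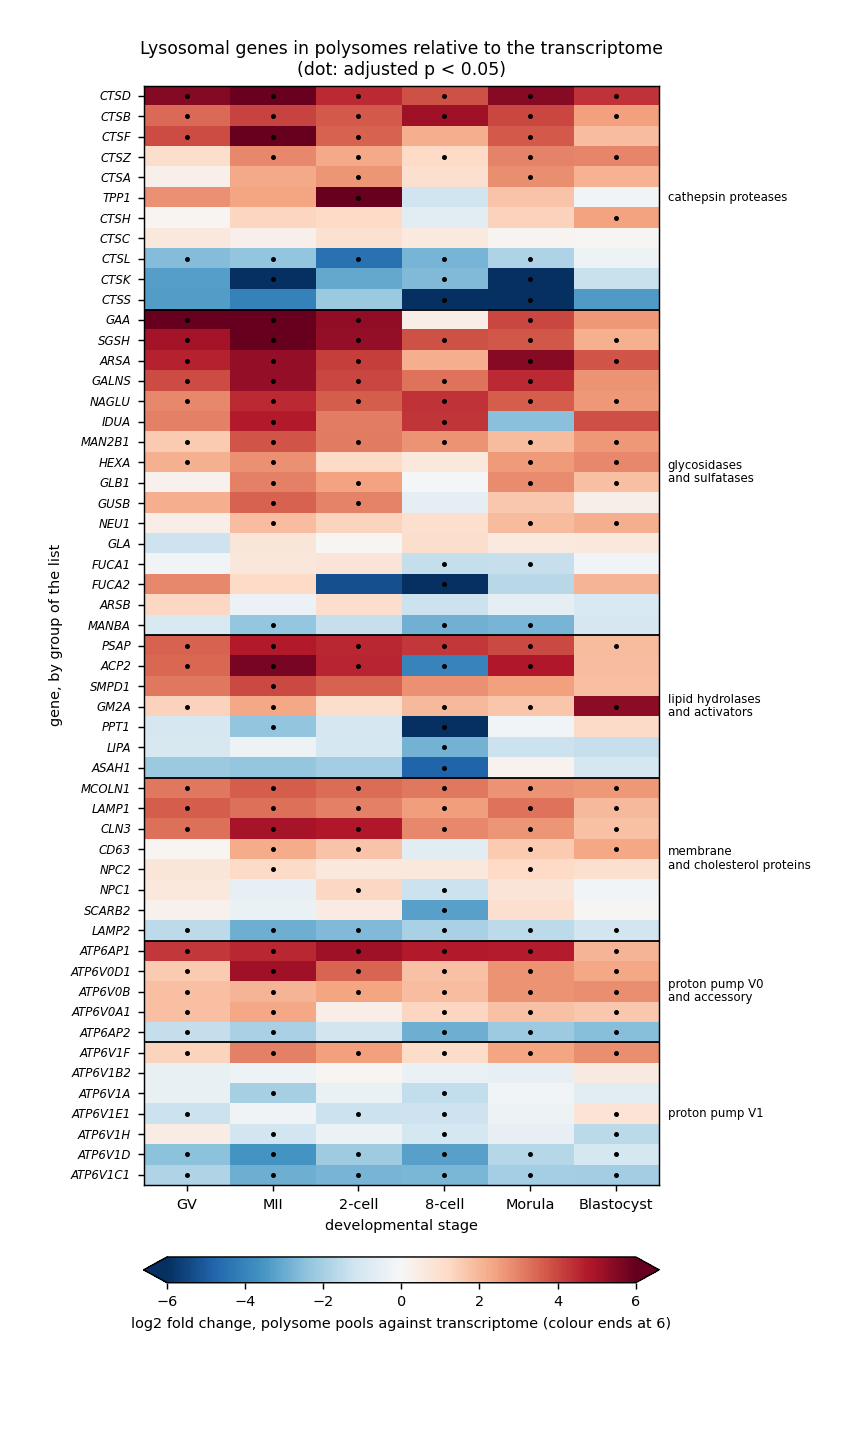
Log2 fold change of polysome pools (2 a stage) against transcriptomes (3 a stage) for the 54 lysosomal genes (rows, in 6 groups) at the 6 stages (columns), red where polysomes were higher and blue where they were lower, with a dot where the adjusted p was under 0.05. The rows of CTSD, CTSB, SGSH, PSAP, MCOLN1, LAMP1 and ATP6AP1 are red with a dot throughout, those of LAMP2, ATP6V1D and ATP6V1C1 blue with a dot throughout, and the 8-cell column holds 19 blue and 18 red dots.

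Few genes of the list, as of all genes, were called in both directions. Of the 54 genes, 31 were higher at 1 or more stages and never lower, 16 were lower at 1 or more and never higher, 3 (ACP2, NPC1 and ATP6V1E1) were called in both directions, and 4 (CTSC, GLA, ARSB and ATP6V1B2) were never called. Of all genes tested, 37.6%, 41.6%, 7.53% and 13.2% had these patterns. The 13 genes called higher at all 6 stages were CTSB, CTSD, SGSH, NAGLU, MAN2B1, PSAP, LAMP1, MCOLN1, CLN3, ATP6AP1, ATP6V0B, ATP6V0D1 and ATP6V1F, and the 3 called lower at all 6 were LAMP2, ATP6V1C1 and ATP6V1D, where 9.92% and 5.78% of all genes were. The 6 comparisons are made on different libraries, 2 pools and 3 transcriptomes each, but share 1 estimate of the spread. Leaving out single libraries lost some of these calls. ATP6V1F and MAN2B1 in GV oocytes were lost without pool B, as was ATP6V1C1, and ATP6V1F in 8-cell embryos was lost without pool A. MCOLN1 and NAGLU in morulae were lost without pool B. In blastocysts CLN3, LAMP2 and ATP6V1D were lost without pool A, and NAGLU and ATP6V1D without pool B. With pools of F9 and F10 alone ATP6V1F, CLN3, SGSH and ATP6V1D were no longer called at all 6 stages, and with each stage fitted alone ATP6V0D1 and NAGLU were not.

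The summed level of the list was higher in both polysome pools than in all 3 transcriptomes at every stage but the 8-cell stage. Sums of the lighter pools, which exceeded those of polysomes at some stages, are given further below. The summed level was 5016 ± 904 CPM in pools and 3359 ± 60.1 CPM in transcriptomes of GV oocytes (SD, n = 2 and 3 here and in the next sentences). MII oocytes had 7905 ± 1482 against 3499 ± 128 CPM. For 2-cell embryos the values were 6571 ± 199 against 2934 ± 102 CPM. In 8-cell embryos the 2 kinds of library overlapped, with 6847 ± 618 against 5436 ± 1384 CPM. The largest spread between pools was in morulae, at 12784 ± 6113 against 6296 ± 249 CPM, and blastocysts had 15308 ± 39.5 against 5964 ± 566 CPM. From GV oocytes to blastocysts the means stood at ratios of 1.49, 2.26, 2.24, 1.26, 2.03 and 2.57. Without pool B the morula ratio was 1.34. The groups of the list did not share this ratio. For the cathepsins it ran from 2.26 in morulae, where it was 0.994 without pool B and 3.52 without pool A, to 9.54 in MII oocytes, and for the V0 and accessory subunits from 2.43 in GV oocytes to 6.76 in MII oocytes. For the 7 subunits of V1 it was below 1 at the first 4 stages, from 0.517 in 8-cell embryos to 0.815 in GV oocytes, with both pools below all 3 transcriptomes, and it was 1.0 in morulae and 1.59 in blastocysts. For the membrane and cholesterol proteins the ratio lay between 0.662 and 1.41, with a morula value of 0.979 that was 0.599 without pool B. The V1 value of morulae was 0.793 without pool A.

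**Figure D2:**
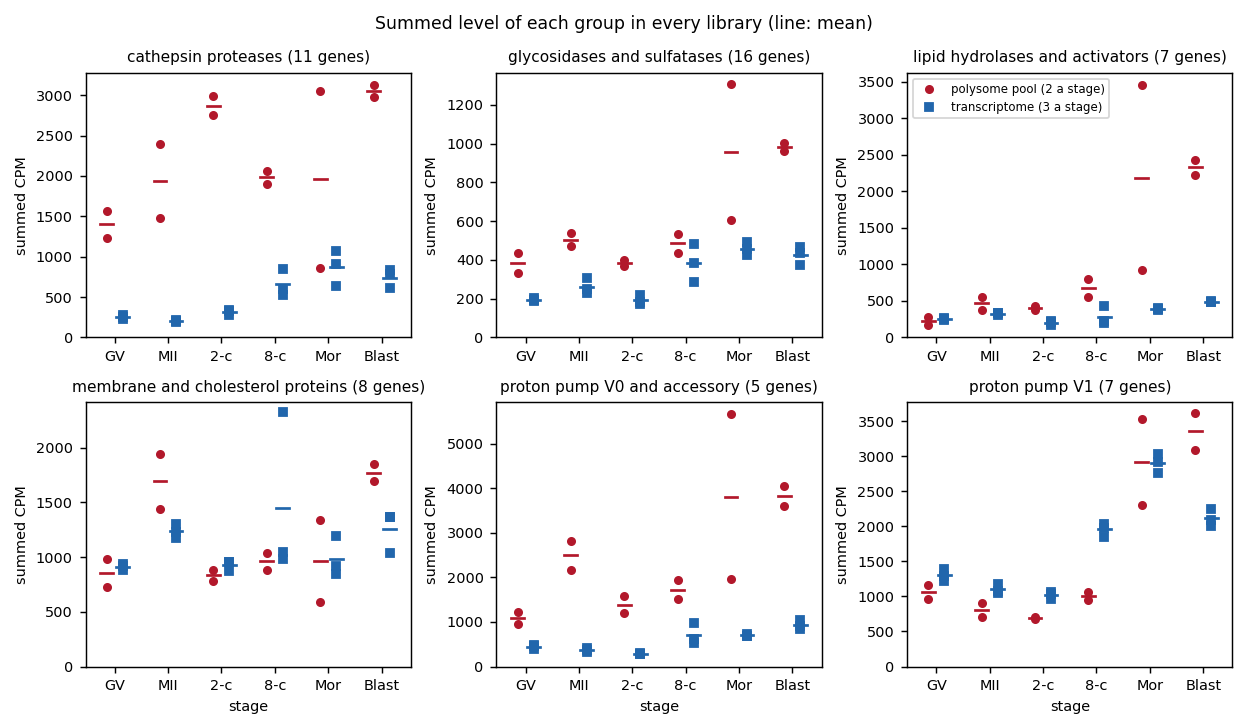
Summed CPM of each group of the list (y axis, linear from 0) in every library at the 6 stages (x axis), with polysome pools as red circles, transcriptomes as blue squares and a short line at each mean. The pools of the cathepsins and of V0 lie above the transcriptomes except for the lower cathepsin pool in morulae, the V1 pools lie below them up to the 8-cell stage, and the 2 morula pools are far apart in every group.

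A few genes carried most of the difference in level. When the positive differences between pool and transcriptome means were added up at each stage, 5 genes made up 59.8% (blastocysts) to 73.2% (2-cell embryos) of the gain. The ranking of the genes rests on morula pool B. Averaged over stages, the largest differences were those of ATP6V0B (1002 CPM), CTSB (951.4 CPM), ATP6V0D1 (647 CPM), ATP6V1F (599.6 CPM) and PSAP (573 CPM). Without morula pool B CTSB came first, at 906 CPM, and ATP6V0B was at 783 CPM, and CTSB also came first without 8-cell pool B. The leading gene changed with stage. CTSB gave 31.7% of the gain at the GV stage, 41.7% at the 2-cell and 24.6% at the 8-cell stage, ATP6V0D1 gave 25.7% in MII oocytes, and ATP6V0B gave 23.6% in morulae and 21.9% in blastocysts. Without morula pool B, ATP6V1F led in morulae with 33.5%, and without 8-cell pool A, ATP6V0B led in 8-cell embryos with 19.3%. On the other side, LAMP2 was the largest loss at 5 stages, from 23.5% of all losses in morulae to 45.7% in 2-cell embryos, and ATP6V1E1 led in 8-cell embryos. The largest loss was that of ATP6V1D in morulae without pool A or transcriptome B and in 8-cell embryos without pool A, and that of CD63 in 8-cell embryos without transcriptome B or C. These shares are weighted by length and by level, and a gene of low level such as SGSH adds little to them whatever its fold change.

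**Figure D3:**
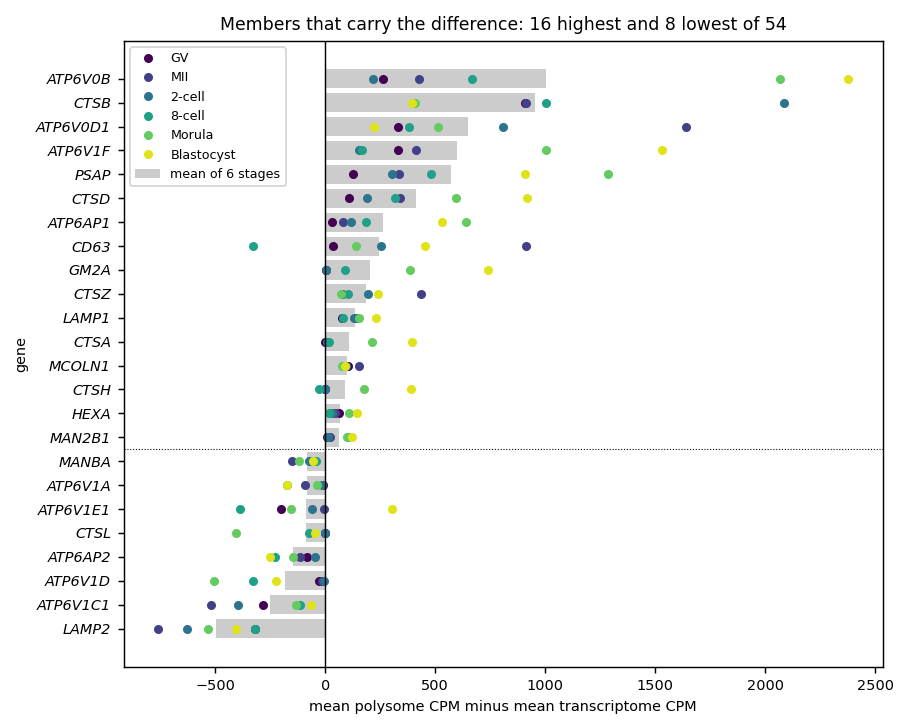
Difference between the mean of the 2 polysome pools and the mean of the 3 transcriptomes in CPM (x axis, linear) for the 16 genes with the highest and the 8 with the lowest mean over stages (y axis), with a point per stage and a grey bar for the mean of the 6 stages. ATP6V0B and CTSB have the longest bars to the right, at 1002 and 951.4 CPM, and LAMP2 the longest to the left, at -494.7 CPM.

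Among the 11 cathepsins and related proteases, CTSB and CTSD were higher in polysomes at all 6 stages, CTSL, CTSK and CTSS were only ever lower, and CTSC was not called. The counts called higher, in the order of the stages, were 3, 4, 6, 3, 5 and 4, and those called lower 1, 2, 1, 3, 3 and 0. These counts, and those of the groups that follow, stand beside 22.2%, 30.8%, 29.1%, 28%, 26.5% and 20% of all genes higher and 17.7%, 26.7%, 21.9%, 31%, 25.2% and 20.1% lower, and with 5 to 16 genes a group several of them lie near those shares. CTSB encodes cathepsin B, a cysteine protease of the endolysosome. Values are written stage by stage, in CPM, with pools A and B or transcriptomes A, B and C after the name of the stage. In the pools CTSB was at GV 912 and 1086, MII 1238 and 701, 2-cell 2218 and 2303, 8-cell 1243 and 825, morula 166 and 706 and blastocyst 466 and 494. In transcriptomes A, B and C it was GV 111, 67.8 and 101, MII 73.4, 57.6 and 43.3, 2-cell 176, 149 and 197, 8-cell 27.2, 28.9 and 36.2, morula 25.5, 32.7 and 22.3 and blastocyst 68.8, 101 and 95.4. Both pools lay above all 3 transcriptomes at every stage, and the log2 fold change was GV 3.42 ± 0.40, MII 4.06 ± 0.41, 2-cell 3.70 ± 0.40, 8-cell 5.07 ± 0.43, morula 4.02 ± 0.41 and blastocyst 2.44 ± 0.39, with adjusted p between 1.22e-09 and 2.65e-05. After a log2 fold change, here and below, ± is a standard error derived from the test statistic of the fit and not an SD between libraries. CTSD, cathepsin D, the main aspartic protease of the lysosome, was at GV 72.97 and 149, MII 363 and 323, 2-cell 181 and 214, 8-cell 210.5 and 475, morula 150.4 and 1064 and blastocyst 957 and 974 in the pools. The transcriptomes held GV 2.66, 2.15 and 2.43, MII 4.47, 7.401 and 5.23, 2-cell 7.99, 8.95 and 9.78, 8-cell 47.6, 8.33 and 16.5, morula 13.5, 18.1 and 9.16 and blastocyst 47.04, 38.1 and 56.8. No pool of CTSD overlapped a transcriptome of its stage, although the morula pools differed from each other more than those of other stages. The log2 fold change of the gene was GV 5.51 ± 0.66, MII 5.91 ± 0.66, 2-cell 4.47 ± 0.62, 8-cell 3.83 ± 0.60, morula 5.48 ± 0.65 and blastocyst 4.35 ± 0.62 (adjusted p at most 1.12e-05).

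CTSF, another cysteine cathepsin, had its largest difference in MII oocytes, with 23.8 and 26.4 CPM in the pools and 0.687, 0.203 and 0.238 CPM in the transcriptomes (6.04 ± 1.26, adjusted p = 0.00026). It was also called higher in GV oocytes, 2-cell embryos and morulae, the last not without pool B. In all, CTSF was at GV 12.3 and 12.9, MII 23.8 and 26.4, 2-cell 14.4 and 14.03, 8-cell 0 and 19.4, morula 7.42 and 38.05 and blastocyst 51.6 and 31.5 CPM in pools. The transcriptomes of CTSF held GV 1.14, 0.923 and 0.405, MII 0.687, 0.203 and 0.238, 2-cell 1.07, 1.36 and 1.28, 8-cell 3.94, 1.52 and 0.8698, morula 1.87, 2.06 and 1.401 and blastocyst 13.8, 8.71 and 12.4 CPM. The pools were both above all transcriptomes at the GV, MII, 2-cell, morula and blastocyst stages, and the values overlapped at the other stage. TPP1, tripeptidyl peptidase 1, was called only in 2-cell embryos, where all 3 transcriptomes were at 0 and the pools held 1.95 and 0.0308 CPM. Against the level that 3 counts over the transcriptomes would give, this is at least 12.8-fold higher, and it rests on pool A, since the call was lost without it. TPP1 pools held GV 0 and 1.76, MII 3.89 and 3.898, 2-cell 1.95 and 0.0308, 8-cell 5.33 and 3.14, morula 10.1 and 28.2 and blastocyst 20.7 and 27.6 CPM. In transcriptomes TPP1 was at GV 0.0759, 0.103 and 0.203, MII 0.458, 1.52 and 0.238, 2-cell 0, 0 and 0, 8-cell 17.4, 5.83 and 5.48, morula 4.2, 9.83 and 3.66 and blastocyst 23.8, 31.1 and 27.01 CPM. Both of its pools stood above all transcriptomes at the MII, 2-cell and morula stages and below them at the 8-cell stage, and the values overlapped elsewhere. CTSL, cathepsin L, stood at 160.1 and 154 CPM in morula pools and 766, 561 and 361 CPM in the transcriptomes (-1.84 ± 0.76, adjusted p = 0.046), a call lost without any 1 of pool A, pool B, transcriptome A or transcriptome B. In 8-cell embryos its pools held 19.97 and 5.86 CPM against 67.1, 74.7 and 124 CPM (-2.78 ± 0.80, adjusted p = 0.00503). From GV oocytes to 2-cell embryos CTSL was under 5 CPM in every library, with 0 and 0.297 CPM in GV pools against 0.759, 1.03 and 1.01 CPM (-2.61 ± 1.02, adjusted p = 0.0451). In 2-cell pools it held 0 and 0.0615 CPM against 0.989, 0.3197 and 1.05 CPM. The GV, MII and 2-cell calls were each lost without pool A, the GV call also without any 1 transcriptome and the MII call without transcriptome C. Across the stages the pools of CTSL held GV 0 and 0.297, MII 0 and 1.29, 2-cell 0 and 0.0615, 8-cell 19.97 and 5.86, morula 160.1 and 154 and blastocyst 219.7 and 212 CPM. For CTSL the transcriptomes had GV 0.759, 1.03 and 1.01, MII 2.06, 3.35 and 4.64, 2-cell 0.989, 0.3197 and 1.05, 8-cell 67.1, 74.7 and 124, morula 766, 561 and 361 and blastocyst 197, 273 and 324 CPM. Both pools lay below all transcriptomes at the GV, MII, 2-cell, 8-cell and morula stages, and the values overlapped at the other stage. CTSK, cathepsin K, a collagen-degrading protease best known from osteoclasts, had no count in either pool of MII oocytes and of morulae. Its transcriptomes held 0.343, 0.406 and 1.07 CPM in MII oocytes and 4.85, 3.75 and 6.57 CPM in morulae, so the pools were at least 11.3-fold and 93.7-fold lower. In 8-cell embryos, where transcriptome A had the highest sum of the cumulus markers named above, CTSK was at 37.1 and 4.91 CPM in pools and 222, 63.1 and 107 CPM in transcriptomes, and the call was lost without transcriptome A or pool B. Across the stages CTSK was at GV 0 and 0, MII 0 and 0, 2-cell 0 and 0, 8-cell 37.1 and 4.91, morula 0 and 0 and blastocyst 2.74 and 0.936 CPM in pools. The transcriptomes of CTSK held GV 0.0759, 0 and 0.101, MII 0.343, 0.406 and 1.07, 2-cell 0.0761, 0 and 0.0752, 8-cell 222, 63.1 and 107, morula 4.85, 3.75 and 6.57 and blastocyst 5.29, 4.56 and 4.002 CPM. The pools were both below all transcriptomes at the MII, 8-cell, morula and blastocyst stages, and the values overlapped elsewhere. CTSS, cathepsin S, a protease of antigen-presenting cells, was at 0 in every pool from GV oocytes to morulae. The transcriptomes held 2.06, 1.88 and 4.52 CPM in 8-cell embryos and 2.52, 4.56 and 4.53 CPM in morulae, and the pools were at least 57.6-fold and 71.6-fold lower. By stage CTSS had GV 0 and 0, MII 0 and 0, 2-cell 0 and 0, 8-cell 0 and 0, morula 0 and 0 and blastocyst 0.696 and 0 CPM in pools. In transcriptomes CTSS was at GV 0, 0 and 0.203, MII 0, 0.203 and 0.119, 2-cell 0, 0.0799 and 0, 8-cell 2.06, 1.88 and 4.52, morula 2.52, 4.56 and 4.53 and blastocyst 3.53, 4.56 and 3.201 CPM. Both of its pools stood below all transcriptomes at the 8-cell, morula and blastocyst stages, and the values overlapped elsewhere.

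The glycosidases and sulfatases cut sugars and sulfate groups from glycans, and 7, 11, 8, 5, 9 and 7 of the 16 were higher in polysomes from GV oocytes to blastocysts, while 0, 1, 0, 3, 2 and 0 were lower. SGSH, the sulfamidase of heparan sulfate breakdown, was at GV 40.4 and 47.9, MII 66.6 and 32.1, 2-cell 35.2 and 50.5, 8-cell 17.7 and 38.1, morula 5.88 and 44.1 and blastocyst 27.98 and 23.4 in the pools. In the transcriptomes it was at GV 1.82, 1.13 and 1.22, MII 0.916, 0.7097 and 0.357, 2-cell 0.837, 1.36 and 1.13, 8-cell 1.37, 2.24 and 2.26, morula 1.4, 2.503 and 1.72 and blastocyst 6.76, 4.98 and 6.002. Every pool lay above every transcriptome of its stage. The log2 fold change was highest in MII oocytes, at 6.20, and lowest in blastocysts, at 2.12, with adjusted p between 5.88e-08 and 0.00657. NAGLU, which removes N-acetylglucosamine from heparan sulfate, held GV 40.6 and 31.2, MII 113 and 115, 2-cell 54.9 and 91.5, 8-cell 48.7 and 22.7, morula 0.819 and 5.84 and blastocyst 4.92 and 8.81 in the pools. In the transcriptomes it held GV 6.07, 3.79 and 4.87, MII 5.95, 5.88 and 3.57, 2-cell 6.09, 5.12 and 6.39, 8-cell 2.66, 1.43 and 1.22, morula 0, 0.0894 and 0.754 and blastocyst 0.882, 1.45 and 1.0. On the log2 scale the fold change ran from 2.61 to 4.47 (adjusted p at most 0.00861), and its level in both kinds of library was lowest in morulae. GAA, the glucosidase that degrades lysosomal glycogen, was under 1 CPM in all transcriptomes of the first 3 stages and had 10.1 and 20.7, 37.97 and 40.8 and 15.1 and 20.2 CPM in their pools, with log2 fold changes of 5.96, 6.84 and 5.33 (adjusted p = 0.00238, 0.000507 and 0.00298). In morulae GAA was called higher on 0.0482 and 3.13 CPM against 0.0933, 0.179 and 0 CPM, and its pools held 110 counts in all and the transcriptomes 3, a ratio of scaled levels of 20.6 with an exact 95% counting interval of 6.86 to 101. Pools A and B held 1 and 109 of these counts, so the interval, which covers counting error only, leaves out the spread between pools. The call was lost without any 1 transcriptome, and the direction turned without pool B. The GAA pools held GV 10.1 and 20.7, MII 37.97 and 40.8, 2-cell 15.1 and 20.2, 8-cell 0 and 3.36, morula 0.0482 and 3.13 and blastocyst 12.9 and 2.298 CPM by stage. For GAA the transcriptomes had GV 0.304, 0.308 and 0.101, MII 0.343, 0.203 and 0.476, 2-cell 0.304, 0.1599 and 0.827, 8-cell 2.74, 0.0896 and 0.957, morula 0.0933, 0.179 and 0 and blastocyst 1.76, 0.829 and 1.2 CPM. Both pools lay above all transcriptomes at the GV, MII, 2-cell and blastocyst stages, and the values overlapped elsewhere. ARSA, arylsulfatase A, had its largest fold change in morulae, at log2 5.48 ± 1.59, adjusted p = 0.00624, on 0 and 54.4 CPM in pools A and B and 0.28, 0.983 and 0.539 CPM in transcriptomes. Pool A held no count, and the direction turned without pool B. In blastocysts ARSA was at 70.1 and 54.01 CPM against 5.29, 4.35 and 3.802 CPM (3.79 ± 1.46, adjusted p = 0.0417), a call lost without any 1 of the 5 libraries. The GV call of ARSA was lost without transcriptome B or C, and the 2-cell call without pool B or any transcriptome. By stage ARSA was at GV 24.4 and 23.8, MII 22.6 and 17.99, 2-cell 13.5 and 15.04, 8-cell 0 and 27.1, morula 0 and 54.4 and blastocyst 70.1 and 54.01 CPM in pools. The transcriptomes of ARSA held GV 1.59, 0.615 and 0.7095, MII 0.687, 0.7097 and 0.119, 2-cell 0.989, 0.719 and 0.677, 8-cell 5.06, 0.896 and 2.87, morula 0.28, 0.983 and 0.539 and blastocyst 5.29, 4.35 and 3.802 CPM. The pools were both above all transcriptomes at the GV, MII, 2-cell and blastocyst stages, and the values overlapped elsewhere. MAN2B1, the lysosomal alpha-mannosidase, was higher at all 6 stages, with log2 fold changes of 1.59 to 3.76. The MAN2B1 pools held GV 9.36 and 13.4, MII 35.4 and 11.66, 2-cell 8.31 and 19.3, 8-cell 120.2 and 126, morula 142 and 122 and blastocyst 125 and 162 CPM. In transcriptomes MAN2B1 was at GV 4.1, 4.41 and 2.84, MII 1.95, 1.82 and 1.43, 2-cell 1.14, 1.998 and 1.65, 8-cell 13.5, 27.96 and 15.7, morula 33.8, 35.9 and 35.6 and blastocyst 31.2, 15.8 and 24.2 CPM. Both of its pools stood above all transcriptomes at all 6 stages. HEXA, a subunit of the enzyme that degrades GM2 ganglioside, was higher in GV and MII oocytes, morulae and blastocysts, with 170.4 and 164 CPM in blastocyst pools and 17.3, 30.3 and 20.4 CPM in transcriptomes (2.88 ± 0.55, adjusted p = 0.000214), and its morula call was lost without pool B. By stage the HEXA pools held GV 68.6 and 91.4, MII 44.6 and 55.7, 2-cell 52.3 and 49.8, 8-cell 45.9 and 40.04, morula 34.7 and 228 and blastocyst 170.4 and 164 CPM. For HEXA the transcriptomes had GV 21.9, 12.9 and 20.1, MII 7.098, 9.63 and 5.71, 2-cell 21.5, 26.5 and 19.5, 8-cell 52.7, 14.9 and 16.1, morula 19.4, 28.3 and 19.6 and blastocyst 17.3, 30.3 and 20.4 CPM. Both pools lay above all transcriptomes at the GV, MII, 2-cell, morula and blastocyst stages, and the values overlapped at the other stage. FUCA2, a fucosidase, had no count in either 8-cell pool and 8.23, 1.88 and 5.04 CPM in the transcriptomes, at least 103-fold lower. At the 6 stages FUCA2 was at GV 0 and 3.11, MII 0.3602 and 0, 2-cell 0 and 0, 8-cell 0 and 0, morula 0.0482 and 0.633 and blastocyst 0 and 4.94 CPM in pools. The transcriptomes of FUCA2 held GV 0.304, 0.205 and 0.101, MII 0.229, 0 and 0, 2-cell 0.3804, 0.3197 and 0.0752, 8-cell 8.23, 1.88 and 5.04, morula 0.467, 1.16 and 1.72 and blastocyst 0.294, 1.24 and 0.2001 CPM. The pools were both below all transcriptomes at the 2-cell and 8-cell stages, and the values overlapped elsewhere.

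Of the 7 lipid hydrolases and activators, counted with acid phosphatase ACP2, 3, 4, 2, 2, 3 and 2 were higher from GV oocytes to blastocysts and 0, 1, 0, 4, 0 and 0 lower. PSAP was higher throughout, GM2A was higher at 5 stages, and PPT1, LIPA and ASAH1 were called lower and never higher. LIPA and ASAH1 were called only in 8-cell embryos, where LIPA had 41 and 601 and ASAH1 0 and 275 unscaled counts in pools A and B. PSAP, the precursor of the saposins that help to degrade sphingolipids, was at GV 88.6 and 187, MII 477 and 216, 2-cell 354 and 281, 8-cell 412 and 605, morula 614 and 2132 and blastocyst 1309.8 and 1167 in pools. The 3 transcriptomes of each stage held GV 16.1, 9.33 and 10.3, MII 15.8, 16.7 and 6.42, 2-cell 14.7, 9.59 and 17.1, 8-cell 33.7, 22.9 and 23.5, morula 95.4, 88.1 and 78.2 and blastocyst 339.9, 325 and 331. The pools were above all transcriptomes at each stage, and the log2 fold change was GV 3.53 ± 0.46, MII 4.73 ± 0.48, 2-cell 4.52 ± 0.48, 8-cell 4.25 ± 0.47, morula 3.98 ± 0.46 and blastocyst 1.90 ± 0.44 (adjusted p at most 0.00134). GM2A, the activator protein of GM2 breakdown, had its largest difference in blastocysts. Blastocyst pools held 737 and 779 CPM and transcriptomes 16.8, 19.5 and 18.2 CPM (5.38 ± 0.48, adjusted p = 1.04e-08), while morula pools held 221 and 903 CPM and morula transcriptomes 171, 176 and 191 CPM (1.65 ± 0.42, adjusted p = 0.00251, not called without pool B). The GV call of GM2A was lost without pool A, transcriptome A or transcriptome B. From morulae to blastocysts the log2 change of GM2A was -3.30 in the transcriptome and 0.43 in the pools, the second not past the threshold. At the 6 stages GM2A was at GV 8.097 and 4.13, MII 5.01 and 1.97, 2-cell 6.89 and 5.66, 8-cell 141 and 102, morula 221 and 903 and blastocyst 737 and 779 CPM in pools. In transcriptomes GM2A was at GV 2.28, 1.85 and 2.94, MII 0.572, 0.912 and 0.595, 2-cell 4.03, 2.08 and 3.01, 8-cell 31.8, 22.9 and 39.1, morula 171, 176 and 191 and blastocyst 16.8, 19.5 and 18.2 CPM. Both of its pools stood above all transcriptomes at all 6 stages. ACP2, lysosomal acid phosphatase, changed sides. It was higher in GV oocytes, MII oocytes and 2-cell embryos, where the pools held 12.6 and 8.55 CPM against 0.3804, 0.2398 and 0.677 CPM (4.59 ± 1.35, adjusted p = 0.00683). In 8-cell embryos it had 0.08203 and 0 CPM in pools and 1.63, 0.179 and 0.261 CPM in transcriptomes (-4.02 ± 1.66, adjusted p = 0.0416, lost without pool B or transcriptome A). The 8-cell pools held 2 counts in all and the transcriptomes 24, a ratio of scaled levels of 0.0467 with an exact 95% counting interval of 0.00535 to 0.188, which covers counting error only. In morulae the pools held 0 and 26.6 CPM against 0.467, 0.626 and 0.323 CPM (4.79 ± 1.37, adjusted p = 0.00557), and the direction turned without pool B. The GV call of ACP2 was lost without any 1 of the 5 libraries. By stage ACP2 had GV 4.52 and 4.32, MII 10.7 and 5.11, 2-cell 12.6 and 8.55, 8-cell 0.08203 and 0, morula 0 and 26.6 and blastocyst 11.8 and 12.8 CPM in pools. For ACP2 the transcriptomes had GV 0.304, 0.308 and 0.608, MII 0.229, 0.203 and 0, 2-cell 0.3804, 0.2398 and 0.677, 8-cell 1.63, 0.179 and 0.261, morula 0.467, 0.626 and 0.323 and blastocyst 4.12, 1.87 and 4.202 CPM. Both pools lay above all transcriptomes at the GV, MII, 2-cell and blastocyst stages and below them at the 8-cell stage, and the values overlapped at the other stage. PPT1, palmitoyl-protein thioesterase 1, was nearly missing from 8-cell pools, at 0 and 0.569 CPM, with 86.2, 33.8 and 30.4 CPM in the transcriptomes (-7.33 ± 0.86, adjusted p = 1.63e-07). In blastocysts it was at 129 and 109 CPM in the pools and 46.5, 53.9 and 60.4 CPM in the transcriptomes (1.15 ± 0.58, adjusted p = 0.116). PPT1 by stage was at GV 9.46 and 10.5, MII 7.49 and 8.797, 2-cell 4.78 and 12.2, 8-cell 0 and 0.569, morula 39.5 and 103 and blastocyst 129 and 109 CPM in pools. The transcriptomes of PPT1 held GV 23.2, 16 and 21.4, MII 39.4, 38.6 and 49.8, 2-cell 18.2, 17.1 and 16.3, 8-cell 86.2, 33.8 and 30.4, morula 76.1, 72.2 and 89.3 and blastocyst 46.5, 53.9 and 60.4 CPM. The pools were both above all transcriptomes at the blastocyst stage and below them at the GV, MII, 2-cell and 8-cell stages, and the values overlapped at the other stage.

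The 8 membrane and cholesterol proteins divided, with 3, 5, 5, 3, 5 and 4 higher and 1, 1, 1, 3, 1 and 1 lower in the order of the stages. LAMP1 and LAMP2, the related and most abundant glycoproteins of the lysosomal membrane, lay on opposite sides at every stage. LAMP1 was at GV 79.9 and 87.6, MII 219 and 90.3, 2-cell 154 and 140.2, 8-cell 80.2 and 117, morula 124 and 222 and blastocyst 253 and 366 in pools. In the transcriptomes the values were GV 6.605, 6.46 and 7.095, MII 21.4, 17.2 and 8.45, 2-cell 15.7, 16.5 and 22.4, 8-cell 28.6, 10.9 and 13.3, morula 17.9, 23.96 and 11.9 and blastocyst 65.9, 82.9 and 90.8. Its log2 fold change was GV 3.64 ± 0.45, MII 3.30 ± 0.45, 2-cell 3.01 ± 0.44, 8-cell 2.48 ± 0.44, morula 3.27 ± 0.44 and blastocyst 1.95 ± 0.43 (adjusted p at most 0.000871). LAMP2 was at GV 151 and 176, MII 121 and 106, 2-cell 125 and 117, 8-cell 136 and 90.98, morula 186 and 365 and blastocyst 278 and 434 in pools. Its transcriptomes held GV 486, 438 and 526, MII 780.5, 854 and 984, 2-cell 781, 785 and 677, 8-cell 673, 335 and 296, morula 661, 1006 and 761 and blastocyst 636, 822 and 833. For LAMP1 every pool lay above every transcriptome of its stage, and for LAMP2 every pool lay below. The log2 fold change of LAMP2 was GV -1.56 ± 0.34, MII -2.94 ± 0.36, 2-cell -2.63 ± 0.36, 8-cell -1.93 ± 0.34, morula -1.55 ± 0.34 and blastocyst -1.10 ± 0.33 (adjusted p at most 0.0104). MCOLN1, the calcium channel mucolipin 1 of the lysosomal membrane, was at GV 109 and 123, MII 196 and 138, 2-cell 93.5 and 114, 8-cell 51.3 and 134, morula 19.4 and 159.8 and blastocyst 149.9 and 63.03 in pools. The 3 transcriptomes of each stage held GV 16.4, 9.95 and 11.9, MII 13.5, 15 and 11.4, 2-cell 7.53, 9.27 and 13.99, 8-cell 15.1, 9.05 and 6.96, morula 11.6, 13.2 and 16.2 and blastocyst 19.1, 17 and 16.01. The log2 fold change of the gene was 2.62 to 3.65 over the stages (adjusted p at most 0.000708). CLN3, a membrane protein mutated in a juvenile form of neuronal ceroid lipofuscinosis, was higher at all 6 stages, with log2 fold changes of 1.74 to 4.96. CD63, a tetraspanin of late endosomes and exosomes, was higher at 4 stages, of which the morula call was lost without pool B. In MII oocytes it was at 1303 and 1015 CPM in pools against 268, 259.6 and 217 CPM (2.22 ± 0.39, adjusted p = 3.67e-05). In GV oocytes the values overlapped, with 292 and 465 CPM against 300.4, 408 and 327 CPM (0.13 ± 0.39, adjusted p = 0.833). In 8-cell embryos transcriptome A stood above the other libraries, with 479.9 and 579 CPM in pools and 1417, 595 and 563 CPM in transcriptomes (-0.70 ± 0.40, adjusted p = 0.136). By stage the CD63 pools held GV 292 and 465, MII 1303 and 1015, 2-cell 416 and 318, 8-cell 479.9 and 579, morula 90.9 and 336 and blastocyst 534 and 597 CPM. In transcriptomes CD63 was at GV 300.4, 408 and 327, MII 268, 259.6 and 217, 2-cell 115, 107 and 117, 8-cell 1417, 595 and 563, morula 76.1, 85.6 and 54.6 and blastocyst 112, 114 and 109 CPM. Both of its pools stood above all transcriptomes at the MII, 2-cell, morula and blastocyst stages, and the values overlapped elsewhere. Of the cholesterol proteins, NPC2, which binds cholesterol in the lumen, was higher in MII oocytes and morulae, and NPC1, which takes it over in the membrane, was higher in 2-cell and lower in 8-cell embryos. SCARB2, the receptor that brings glucocerebrosidase to the lysosome, was lower in 8-cell embryos. Its unscaled counts there were 0 and 586 in pools A and B and 1244, 663 and 724 in transcriptomes A, B and C.

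In the membrane part of the proton pump, 4 of 5 genes were higher in polysomes at every stage but the 2-cell stage, where 3 were, and ATP6AP2 was lower at 5 stages. ATP6V0B, a subunit of the proton-carrying ring, was at GV 245 and 486, MII 565 and 553, 2-cell 309.7 and 232, 8-cell 754 and 1102, morula 1128 and 3757 and blastocyst 2934 and 2617 in pools. It was at GV 104, 119.9 and 89, MII 165, 115 and 122, 2-cell 55.6, 49.9 and 54.5, 8-cell 311, 225 and 248, morula 372, 371 and 382 and blastocyst 404, 354 and 442 in transcriptomes. On the log2 scale the fold change was GV 1.81 ± 0.34, MII 2.06 ± 0.34, 2-cell 2.34 ± 0.34, 8-cell 1.83 ± 0.34, morula 2.70 ± 0.34 and blastocyst 2.79 ± 0.34 (adjusted p at most 0.00014), and no pool overlapped a transcriptome. ATP6V0D1, which joins V0 to the stalk of V1, was at GV 494 and 494, MII 1983 and 1393, 2-cell 993 and 779, 8-cell 562 and 516, morula 519.7 and 688 and blastocyst 283 and 267 in pools. In the transcriptomes the values were GV 184, 138 and 176, MII 45.3, 55.8 and 45.8, 2-cell 82.8, 72.02 and 81, 8-cell 293, 67.8 and 118, morula 104, 86.5 and 89.9 and blastocyst 52.04, 48.9 and 66.4. Its log2 fold change went from 1.57 in GV oocytes to 5.11 in MII oocytes and was 3.49, 1.76, 2.69 and 2.30 at the later stages (adjusted p at most 0.000948). ATP6AP1 and ATP6AP2 encode accessory proteins of the pump, ATP6AP2 being known also as the prorenin receptor, and they went opposite ways. ATP6AP1 was at GV 23.5 and 37.1, MII 105 and 63.8, 2-cell 132 and 105, 8-cell 131 and 250.0, morula 227 and 1103 and blastocyst 750.0 and 655 in pools. Its transcriptomes held GV 2.28, 1.74 and 0.7095, MII 5.04, 3.85 and 2.14, 2-cell 2.36, 2.88 and 5.19, 8-cell 10.2, 3.32 and 7.83, morula 24.1, 34.2 and 17.6 and blastocyst 172, 163 and 175. The log2 fold change of the gene ran from 2.05 to 5.09 and was smallest in blastocysts (adjusted p at most 0.00318). ATP6AP2 was lower in polysomes at all stages but the 2-cell stage. Blastocyst pools held 57.96 and 43.3 CPM and transcriptomes 205, 342 and 359.9 CPM (-2.58 ± 0.51, adjusted p = 0.000278), and in GV oocytes, where the call was lost without pool A, pool B or transcriptome C, the values were 47.9 and 51.1 CPM and 143, 88.6 and 169 CPM. By stage ATP6AP2 was at GV 47.9 and 51.1, MII 46.1 and 34.8, 2-cell 49.98 and 36.3, 8-cell 37.5 and 30.7, morula 10.5 and 72.2 and blastocyst 57.96 and 43.3 CPM in pools. For ATP6AP2 the transcriptomes had GV 143, 88.6 and 169, MII 162, 164 and 147, 2-cell 79.7, 97.7 and 97.4, 8-cell 349.6, 208 and 224, morula 157, 188 and 217 and blastocyst 205, 342 and 359.9 CPM. Both pools lay below all transcriptomes at all 6 stages.

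In the cytoplasmic V1 part, 1, 1, 1, 1, 1 and 2 of 7 subunits were higher and 3, 4, 3, 5, 2 and 3 lower from GV oocytes to blastocysts, and the 2 lower in morulae are near the 25.2% of all genes. ATP6V1F, subunit F of the stalk, was higher at every stage, and its still higher level in GV free RNA is given below. Its pools held GV 432 and 653, MII 322 and 617, 2-cell 215 and 165, 8-cell 349.6 and 267, morula 1840.2 and 659 and blastocyst 1590.1 and 1985. The transcriptomes held GV 169.7, 248 and 221, MII 69.7, 64.7 and 39.97, 2-cell 29.1, 29.98 and 44.9, 8-cell 179.5, 122 and 127, morula 234, 258 and 242 and blastocyst 337, 174 and 258. The log2 fold change was GV 1.35 ± 0.37, MII 3.01 ± 0.38, 2-cell 2.46 ± 0.38, 8-cell 1.11 ± 0.37, morula 2.35 ± 0.37 and blastocyst 2.80 ± 0.38 (adjusted p at most 0.0133). ATP6V1D, subunit D of the central rotor, was at GV 7.24 and 4.92, MII 1.59 and 0.894, 2-cell 1.67 and 2.68, 8-cell 54.96 and 22.2, morula 213 and 223 and blastocyst 218 and 204 in pools. The 3 transcriptomes of each stage held GV 31.1, 39.1 and 30.2, MII 14.5, 15.7 and 15.3, 2-cell 9.59, 9.75 and 9.55, 8-cell 360.2, 439 and 302, morula 649, 714 and 808 and blastocyst 365, 454 and 479.6. On the log2 scale the fold change was GV -2.46 ± 0.34, MII -3.61 ± 0.37, 2-cell -2.15 ± 0.34, 8-cell -3.25 ± 0.35, morula -1.73 ± 0.33 and blastocyst -1.04 ± 0.32 (adjusted p at most 0.0117). ATP6V1C1, subunit C, was at GV 139 and 93.2, MII 87.5 and 71.2, 2-cell 52.6 and 80.1, 8-cell 34.7 and 6.59, morula 21.4 and 62.1 and blastocyst 21.2 and 20.8 in pools. In the transcriptomes the values were GV 396, 377 and 425, MII 572, 549.6 and 669, 2-cell 467, 520.3 and 405, 8-cell 138, 118 and 150.4, morula 169, 168 and 181 and blastocyst 75.6, 99.9 and 87.6. Its log2 fold change was -2.91 to -1.78 over the stages (adjusted p at most 0.00288). Both genes lay below every transcriptome of their stage in both pools. ATP6V1E1 was lower in GV oocytes, 2-cell and 8-cell embryos and higher in blastocysts, ATP6V1A was lower in MII oocytes and 8-cell embryos, and ATP6V1B2 was not called at any stage. V0 and V1 join into 1 complex, and its subunits were called on both sides at every stage.

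Lighter parts of the same gradients were compared with the transcriptome as well, and CTSB, for example, was above the transcriptome in them too. For monosomes (F3 to F5) against the transcriptome, tested over 15387 genes, 17, 26, 19, 15, 17 and 10 of the 54 were higher from GV oocytes to blastocysts, where 20.5%, 25.2%, 15.2%, 28.7%, 22.7% and 12.3% of all genes were. Lower were 7, 7, 4, 21, 11 and 6, with 14.5%, 17.1%, 12.7%, 28.8%, 17.7% and 11.1% of all genes. Free RNA (F1 and F2) against the transcriptome gave 17, 22, 16, 13, 16 and 6 higher, against 24.2%, 27.1%, 17.2%, 26.3%, 19.4% and 7.23% of all genes, and 11, 11, 4, 22, 9 and 5 lower, against 18.3%, 19%, 14.3%, 26.5%, 15.5% and 8.05%. The median log2 fold change of the list was 0.51, 1.78, 1.03, -0.07, 0.45 and 0.43 for monosomes and 0.37, 0.89, 1.22, -1.0, 0.21 and 0.07 for free RNA. These comparisons share the transcriptomes with that of the polysomes. Summed levels of the list were also taken on the scale of the 54 libraries, by stage. Their means were 6904.5, 8037, 4995.5, 4919, 6524 and 8161 CPM in free RNA and 4386, 6167, 6668, 7476, 6528 and 8090 CPM in monosomes. Polysomes held 4754, 7035, 5690, 6539.5, 11272 and 13496 CPM, and transcriptomes 3211, 3405, 3409, 4902, 5989 and 5296 CPM. The polysome mean was below that of free RNA in GV and MII oocytes and below that of monosomes in 2-cell and 8-cell embryos. In GV oocytes CTSB was at 1212 and 1202 CPM in the monosome pools and 872 and 1022 CPM in the polysome pools on the scale of the 54 libraries. ATP6V1F and ATP6V0D1 were higher in GV free RNA than in the heavier pools, at 1956 and 2899 CPM and at 975 and 1369 CPM. ATP6V0B, at 107.5 and 131.5 CPM in GV free RNA, was lower there than in its polysome pools. In GV oocytes the fraction with the highest mean level was F1 or F2 for 27.7% of the list's genes with at least 1 CPM. For all such genes it was 40.6%.

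The direct comparison of polysomes with monosomes of the same gradients gave fewer calls. In GV oocytes 1 of the 54 was higher and 0 lower, where 1.38% and 0.585% of all genes were. MII oocytes had 1 and 3 (0.851% and 1.06%). There were 11 and 3 in 8-cell embryos (11.5% and 10%), 8 and 0 in morulae (3.31% and 5.31%) and 6 and 0 in blastocysts (3.31% and 2.38%). In 2-cell embryos edgeR called 0 in either direction (0.091% and 0.078% of all genes), with 9 genes at an unadjusted p under 0.05. At an unadjusted p under 0.05, 2, 1 and 1 genes were lower in GV oocytes, morulae and blastocysts, and no other tool was run on this comparison. Since the pools of a gradient share a lysate, the fit with each gradient as a block applies as well, and it called 1, 0, 0, 7, 0 and 1 genes from GV oocytes to blastocysts, against 0.91%, 0.403%, 0.0845%, 7.89%, 1.7% and 1.41% of all genes. They were ATP6V0B in GV oocytes, NAGLU in blastocysts, and CD63, ATP6V1F, NPC2, ATP6V0B, LAMP2, PPT1 and CTSB in 8-cell embryos. ATP6V0B was higher in polysomes at 5 of 6 stages without the block. It was at 46.01 and 36.6 CPM in GV monosome pools and 234 and 458 CPM in polysome pools (3.07 ± 0.44, adjusted p = 6.23e-05). In 8-cell embryos the monosome pools held 150.5 and 157 CPM and the polysome pools 739 and 1028 CPM (2.52 ± 0.43, adjusted p = 0.000178). CD63 was higher at the last 3 stages, with 139 and 126 CPM in monosomes and 472 and 525 CPM in polysomes of blastocysts (1.91 ± 0.49, adjusted p = 0.0158), a call that the block did not keep. LAMP2, although lower in polysomes than in the transcriptome, was higher in them than in monosomes in 8-cell embryos, where the monosome pools held 6.46 and 11.1 CPM and the polysome pools 134 and 84.9 CPM (3.64 ± 0.51, adjusted p = 2.39e-05). CTSB went the other way there, with 4328 and 3766 CPM in monosomes and 1219 and 769.6 CPM in polysomes (-2.03 ± 0.55, adjusted p = 0.00878), while it was far above the transcriptome in both. PPT1 was at 5.403 and 4.001 CPM in 8-cell monosomes and 0 and 0.531 CPM in polysomes (-4.04 ± 0.87, adjusted p = 0.00153). NAGLU had no count in either monosome pool of blastocysts and 4.34 and 7.75 CPM in the polysome pools. Leaving out a gradient changed the counts of some stages. The GV count was 0 without gradient B, the MII count 0 without either gradient, and the blastocyst count 2 without A and 0 without B.

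**Figure D4:**
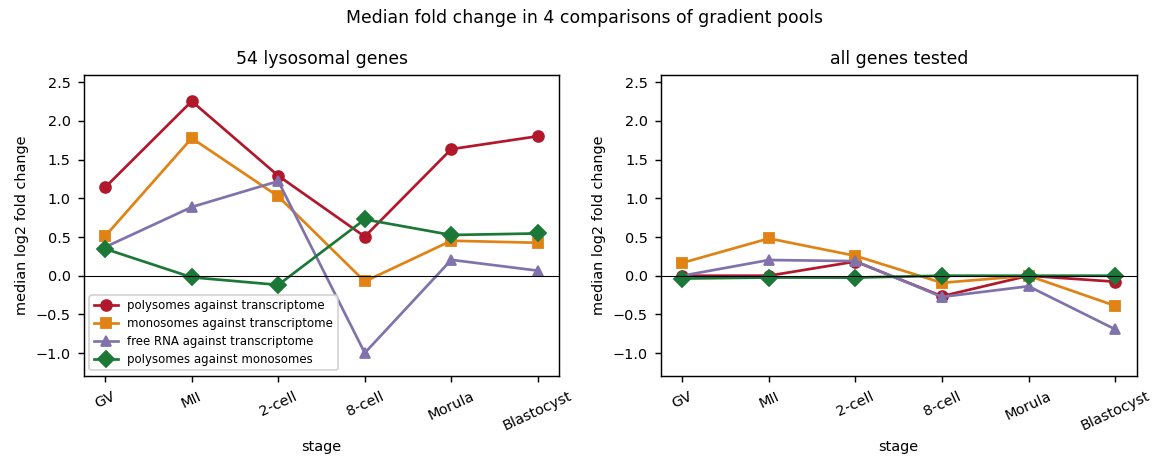
Median log2 fold change (y axis) at the 6 stages (x axis) in 4 comparisons of gradient pools, for the 54 lysosomal genes on the left and for all genes tested on the right. For the list, polysomes against the transcriptome run from 0.51 in 8-cell embryos to 2.26 in MII oocytes, monosomes and free RNA lie below them, and polysomes against monosomes run from -0.12 to 0.73, while the medians of all genes lie between -0.69 and 0.48.

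The position along the gradient was also tested gene by gene, as Spearman's rho between the level and the fraction number over F3 to F10 of both gradients (16 libraries, permutation test), for genes of at least 1 CPM on average. The permutation took the 16 libraries as exchangeable, although the 8 fractions of a gradient come from 1 lysate. Its p thus measures order along 2 gradients and not the spread between lysates. In GV oocytes 12 of 47 genes tested rose towards the heavy fractions and 4 fell, where 17% and 19.7% of all genes did. MII oocytes had 4 of 49 rising and 5 falling (6.85% and 12.5%). The 2-cell stage had 6 and 7 of 47 (9.55% and 10.7%), and the 8-cell stage 8 and 2 of 52 (5.84% and 10.7%). In morulae 0 of 49 passed in either direction (0.834% and 0.791%), with 7 at an unadjusted p under 0.05, 2 with ranks taken within each gradient and 1 with edgeR's slope. Blastocysts had 11 of 51 rising and 0 falling (5.61% and 1.91%), and none of the 51 fell at an unadjusted p under 0.05 or by edgeR's slope. With 1 gradient alone, which leaves 8 libraries, the counts fell to 10 and 3 in GV oocytes without A and without B, to 2 and 2 for MII, 4 and 0 for the 2-cell, 1 and 0 for the 8-cell and 0 and 0 for the blastocyst stage. With 1 gradient, 0 of all genes tested passed in blastocysts and morulae, and 0 passed in 2-cell and 8-cell embryos without gradient B.

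ATP6V0B and CD63 rose with fraction number at 5 stages each, all but the morula stage. For ATP6V0B rho was 0.89, 0.84, 0.75, 0.88 and 0.82 in the order of those stages (adjusted p at most 0.0155), and 0.67 in morulae (adjusted p = 0.141). For CD63 it was 0.69, 0.68, 0.69, 0.79 and 0.88 (adjusted p at most 0.0322). These trends leave out F1 and F2. There CD63 held 540 and 714 CPM in GV and 2334 and 1993.5 CPM in MII oocytes, more than in its monosome or polysome pools. In 8-cell embryos it held 112 and 126 CPM in F1 and F2 and in blastocysts 140 and 70.2 CPM, less than in its polysome pools. CTSD rose at 4 stages, with rho from 0.74 to 0.93, and ATP6V1F and ATP6AP1 at 3 stages each. HEXA, also called at 3 stages, turned: rho was -0.88 in GV oocytes, -0.70 in 2-cell embryos and 0.75 in blastocysts (adjusted p = 0.000465, 0.0266 and 0.0273). CTSB fell in GV oocytes (-0.75) and in 8-cell embryos (-0.96), although its polysome level was above the transcriptome at both. MCOLN1 fell in GV oocytes (-0.88) and LAMP1 in 8-cell embryos (-0.76). The V1 subunits ATP6V1E1 and ATP6V1H fell in MII oocytes and 2-cell embryos, ATP6V1A and ATP6V1B2 fell in 2-cell embryos and ATP6V1D fell in MII oocytes (-0.77). In 8-cell embryos ATP6V1E1 and ATP6V1D rose (0.66 and 0.66, adjusted p = 0.0427 and 0.0422). By edgeR's slope, HEXA passed in GV oocytes but not in 2-cell embryos or blastocysts (adjusted p = 0.0856 and 0.149), CD63 did not pass in MII oocytes or 2-cell embryos (0.0666 and 0.416), CTSD not in the 2-cell stage (0.202), ATP6V1H not in either of its stages (0.14 and 0.106), ATP6AP1 not in 8-cell embryos or blastocysts (0.109 and 0.24), and LAMP1 and ATP6V1D not in 8-cell embryos (0.342 and 0.385). As a description of the profiles, the fraction with the highest mean level was F8, F9 or F10 for 42.6%, 40.8%, 30.4%, 46.2%, 49% and 54.9% of the genes of the list with at least 1 CPM, from GV oocytes to blastocysts, and for 32.4%, 33.1%, 29.5%, 33.2%, 28.8% and 27.2% of all such genes.

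**Figure D5:**
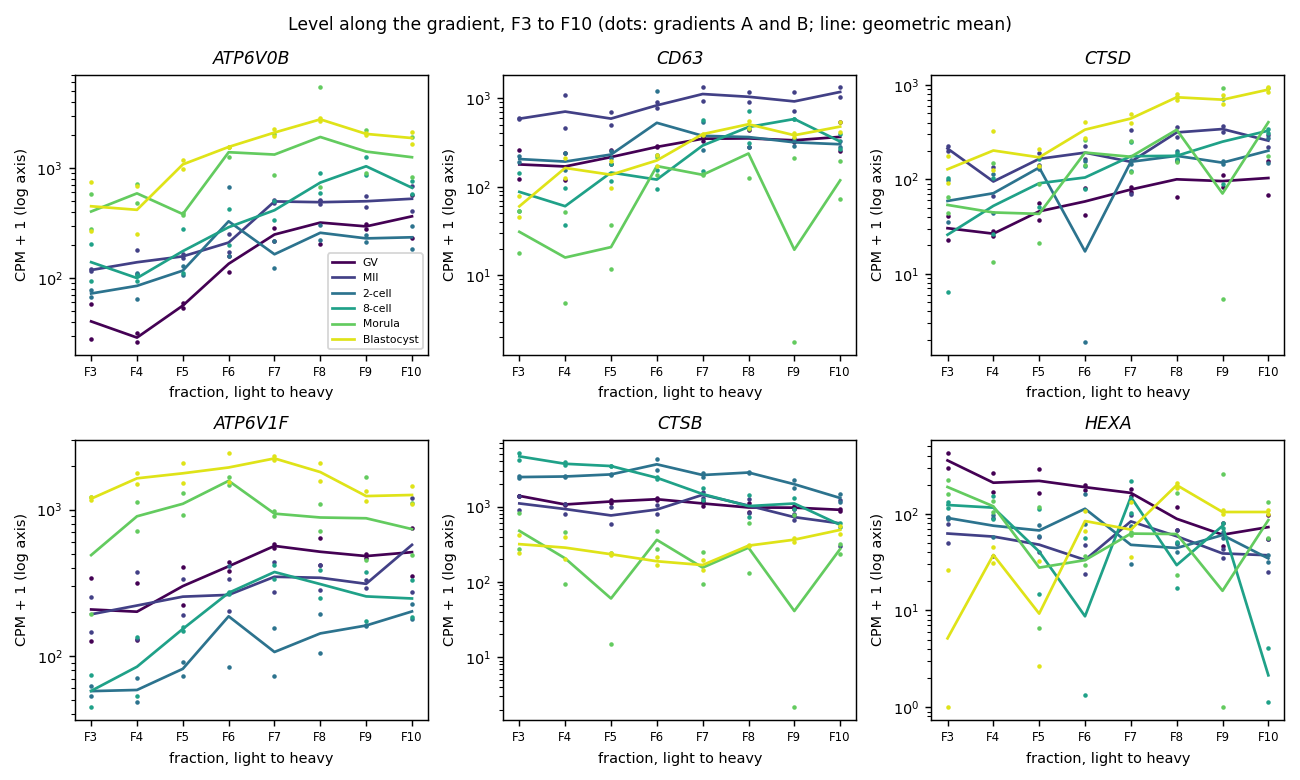
Level along the gradient (CPM + 1, log axis) from light fraction F3 to heavy fraction F10 for 6 genes, with a dot for each gradient and a line for the geometric mean of the 2 gradients at each stage. ATP6V0B, CD63 and CTSD climb to the right at most stages, CTSB in 8-cell embryos descends, HEXA descends in GV oocytes and climbs in blastocysts, and single morula fractions drop far below their neighbours.

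Between stages, the largest shift of the list in the transcriptome came from the 2-cell to the 8-cell stage, when the bovine embryonic genome is switched on. A change between stages was called at an adjusted p under 0.05 and a fold change above 2. From the 2-cell to the 8-cell stage 29 of the 54 rose and 5 fell in the transcriptome, where 26.6% and 23.5% of all genes did, and the median log2 change was 1.54 against 0.03 for all genes. In the polysome pools 15 rose and 8 fell (21% and 25.2% of all genes). Those that rose in both include CTSH (log2 change 9.49 in the transcriptome and 7.69 in polysomes), CTSL (6.79 and 8.47), GLB1, the beta-galactosidase (6.12 and 3.59), GM2A (3.36 and 4.28) and ATP6V1D (5.25 and 4.15). In 2-cell embryos CTSH had 1, 2 and 1 counts in transcriptomes and 0 and 16 in pools. CTSL had 0 and 2 counts in 2-cell pools, and GLB1 5, 2 and 3 in 2-cell transcriptomes. The sizes of these changes depend on the prior count and are no bounds. The 8-cell transcriptomes of CTSH held 1745, 503 and 483 counts. The 5 that fell in the transcriptome were CTSB (-2.50), NAGLU, MANBA, ATP6V0A1 and ATP6V1C1. From GV to MII oocytes 4 rose and 6 fell in the transcriptome (6.61% and 10.5%) and 3 and 2 in polysomes (3.03% and 2.33%), the 3 being CTSZ, CD63 and ATP6V0D1. From MII oocytes to 2-cell embryos the transcriptome counts were 4 and 4 (6% and 5.96%), and 1 gene, CD63, fell in polysomes (3.37% of all genes rose and 5.14% fell). From the 8-cell stage to morulae 5 rose and 9 fell in the transcriptome (6.6% and 7.75%), while 17 rose and 7 fell in polysomes (18.5% and 17.7%). From morulae to blastocysts 12 rose and 4 fell in the transcriptome (10.2% and 11.4%), with PSAP, LAMP1, NPC1, CTSD and ATP6AP1 among the 12, and 4 rose and 1 fell in polysomes (5.79% and 8.13%). The last polysome count of 5 became 24 without morula pool B, 1 without blastocyst pool A and 3 without blastocyst pool B. The polysome count from GV to MII oocytes was 2 without GV pool A or MII pool A and 3 without GV pool B, and that from MII oocytes to 2-cell embryos was 3 without MII pool A and 0 without 2-cell pool A. The transcriptome count of 10 from GV to MII oocytes was 6 without GV transcriptome A or MII transcriptome C and 5 without GV transcriptome C, and that of 8 from MII oocytes to 2-cell embryos was 4 or 5 without MII transcriptome B or C or any 2-cell transcriptome. Neighbouring transitions share the libraries of the stage between them.

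Whether the polysome share itself changed was tested as the polysome change minus the transcriptome change. From GV to MII oocytes 4 genes of the list gained and 1 lost (7.14% and 3.5% of all genes), with ATP6V0D1 at 3.53 ± 0.52, adjusted p = 6.96e-05 on the log2 scale. From MII oocytes to 2-cell embryos edgeR called 0, with 7 at an unadjusted p under 0.05 and 1 called by the likelihood ratio test (0.725% and 1.08% of all genes). From the 2-cell to the 8-cell stage 7 changed, all of them losses (3.45% of all genes gained and 8.72% lost), and 1 gene gained at an unadjusted p under 0.05, where the likelihood ratio test changed 11 in either direction. The 7 were ACP2, TPP1, PPT1, NPC1, CD63, FUCA1 and ATP6V0D1. From the 8-cell stage to morulae 8 gained and 1 lost (7.06% and 5.41%), and ACP2, PPT1, NPC1 and CD63 were among those that gained, so their loss and gain share the 8-cell libraries. From morulae to blastocysts 3 gained and 2 lost (6.04% and 6.24%), the 2 being ATP6AP1 and PSAP. Single libraries weigh on these counts. Without 8-cell pool B they were 22 and 19 for the transitions into and out of the 8-cell stage, in place of 7 and 9, and 15 for 8-cell to morula without morula pool A. For morula to blastocyst the count of 5 was 9 without morula pool A, 16 without morula pool B and 2 or 3 without either blastocyst pool or without transcriptome B or C of either stage. For GV to MII oocytes it was 1 to 3 without any 1 of 8 of the 10 libraries.

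A further 4 lists of the same pathway, of genes that are not among the 54, were counted in the same comparison. Of 40 other lysosomal enzymes and membrane proteins tested, 10, 15, 15, 11, 15 and 12 were higher in polysomes than in the transcriptome from GV oocytes to blastocysts, and 2, 5, 5, 11, 6 and 4 were lower. Of all genes, 22.2%, 30.8%, 29.1%, 28%, 26.5% and 20% were higher and 17.7%, 26.7%, 21.9%, 31%, 25.2% and 20.1% lower. Several counts of the 4 lists lie near these shares. The genes named below are mostly higher ones, and those called lower are in the counts. SIDT2, PLA2G15 (a lysosomal phospholipase) and PLBD2 were higher at all 6 stages, as 9.92% of all genes were, with log2 fold changes of 2.72 to 6.94, 2.84 to 6.22 and 2.74 to 5.89. Of 17 other proton pump subunits, 5, 7, 6, 4, 5 and 5 were higher and 2, 5, 3, 8, 3 and 1 lower. ATP6V0C, the main subunit of the proton-carrying ring, was higher throughout (2.69 to 6.59), like ATP6V0B above. Of 33 genes that sort enzymes to the lysosome, 17, 15, 16, 16, 16 and 9 were higher and 8, 11, 11, 8, 8 and 8 lower, among them CLN6 (5.30 to 7.49), GGA1, an adaptor of the mannose 6-phosphate receptors (4.49 to 6.0), and VPS18 (1.10 to 7.67), all higher at the 6 stages. Of 19 regulators of lysosomal genes and Ragulator subunits, 6, 7, 8, 5, 7 and 6 were higher and 5, 7, 6, 6, 4 and 3 lower. TFEB, the transcription factor that switches on lysosomal genes, was higher in GV oocytes, MII oocytes and morulae (log2 fold changes at the 6 stages 1.85 to 7.24), FNIP2 was higher at all 6 stages (3.09 to 6.33), and RRAGD, a Rag GTPase, was lower at 5 (-7.77 to -1.28).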

How the data were processed

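The deposited table holds 1 column of expected counts per gene symbol for each of 138 libraries (120 gradient fractions and 18 transcriptomes). The authors quantified reads with Salmon and used edgeR, per the submitters' processing notes, which give the build as UMD3.1 while the study's methods name ARS-UCD1.2, and no versions were given in the notes. Every column matched 1 library (0 columns left over). Expected counts were summed over F8 to F10 (polysomes), F3 to F5 (monosomes) or F1 and F2 (free RNA) of a gradient and rounded to whole numbers, since 11.7% of the values were not whole.

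Genes passed edgeR's filterByExpr, TMM factors were computed, and edgeR 4.0.16 (R 4.3.3) quasi-likelihood tests were fitted over all genes with 1 mean per stage and kind of library (12 groups of 30 libraries, or 24 groups of 54 libraries where monosome and free pools entered), with Benjamini-Hochberg adjustment over all genes. An adjusted p under 0.05 was called, and between stages a fold above 2 as well. The study's likelihood ratio test, DESeq2 1.42.0, other scalings, filters and pools, a replicate block and leaving out each library were alternatives. Fraction trends used Spearman's rho with 100000 permutations (Python 3.11.15, scipy 1.17.1). The scripts were tested on simulated data. Against a group at 0, a fold is a bound from 3 counts over the group, which covers counting error only.

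Values in every library are given for genes with the highest and lowest called fold change of a stage, the greatest difference in CPM, the same call at all 6 stages (at most 8 genes, by smallest fold change), the greatest change of polysome share between stages, or trends at 3 or more stages (at most 6 genes). The members and lists were chosen with earlier results of these data known. Replicate letters do not pair a pool with a transcriptome: deviations from the group mean correlated at -0.07 to 0.04, none above 0.1. The polysome and monosome pools of a gradient are paired by origin. The number of animals behind a library is not given in the sources used here. Sequences of the members were not analysed here.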

Additional observations from a re-analysis of the deposited data

Results flagged for a closer look

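The results below are changes of polysome enrichment between neighbouring stages, in which the polysome change and the transcriptome change of a gene differed by a test of the difference itself (edgeR's quasi-likelihood test). From GV to MII oocytes 5 of the 54 genes differed, with ATP6V0D1 at 3.53, MAN2B1 at 2.17 and CD63 at 2.09 on the log2 scale. Transcripts of ATP6V0D1 fell in the transcriptome and rose in the pools between these stages. From 2-cell to 8-cell embryos 7 genes differed, with ACP2 at -8.60, TPP1 at -8.35 and PPT1 at -6.30. The 2-cell transcriptomes held no count of TPP1, so its value depends on the prior count and is no bound. From 8-cell embryos to morulae 9 differed, with ACP2 at 8.81, PPT1 at 7.17 and CTSK at -6.88. ACP2 had 2 and 0 counts in 8-cell pools A and B and 0 and 924 in morula pools A and B, and its morula direction turned without pool B. CTSK was at 0 in both morula pools. The sizes given here for ACP2 and CTSK, at each of their transitions, depend on the prior count and are no bounds. From morulae to blastocysts 5 differed, with CTSK at 8.19, GM2A at 3.73 and ATP6AP1 at -2.67. The libraries of a stage enter both of its transitions. At these transitions 7.14%, 3.45%, 7.06% and 6.04% of all genes gained and 3.5%, 8.72%, 5.41% and 6.24% lost, and leaving out 1 library gave counts of 1 to 5, 5 to 22, 6 to 19 and 2 to 16. What underlies these differences was not tested.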

How the results depend on the processing

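Of the named genes' fold changes under every alternative, 1786 kept direction and side of the threshold, 81 lost the call and 3 reversed. The 3 were in morulae, where leaving out 1 library gave -6.09 to 5.76 for ACP2, -0.89 to 4.93 for GAA and -6.43 to 6.46 for ARSA, the low end without pool B. Of the counts and ratios, 372 stayed within their limits and 79 did not. The parts of the summed difference by gene were recomputed without single libraries after the data were seen. For polysomes against transcriptome, fitting each stage alone gave 10 lower in GV oocytes, 10 in 2-cell and 11 in 8-cell embryos (in place of 6, 5 and 19), and in 2-cell embryos the likelihood ratio test gave 8 and DESeq2 9. With pools of F9 and F10, 11 genes were higher at all 6 stages, 10 of them among the 13. With the likelihood ratio test, 5 genes changed in polysomes from MII oocytes to 2-cell embryos (in place of 1) and 8 from morulae to blastocysts (5), and the polysome enrichment changed for 1 from MII oocytes to 2-cell embryos (0) and 11 from 2-cell to 8-cell embryos (7). With library totals alone, polysome changes were 3 from GV to MII oocytes (5), 3 from MII oocytes to 2-cell embryos and 3 from morulae to blastocysts, enrichment changes from 8-cell embryos to morulae were 5 (9), and the summed ratio was 2.12 in 2-cell embryos (2.24) and 2.02 in blastocysts (2.57). From MII oocytes to 2-cell embryos polysome changes were 3 with RLE size factors and 2 with no filter. The 2-cell fraction trend gave 6 with edgeR's slope (13). The morula trend, with 0, gave 2 with ranks within each gradient as the replicate block, 1 without TMM factors, 1 for a mean of at least 5 CPM and 1 with edgeR's slope. The replicate block moved no count of polysomes against transcriptome by over 1.5 times. With each gradient as a block, polysomes against monosomes gave 0 in MII oocytes (4), 0 in morulae (8), 7 in 8-cell embryos (14) and 1 in blastocysts (6). The causes were not tested.

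Leaving out 1 library gave these lowest and highest counts. For polysomes against transcriptome they were 3 to 5 lower in 2-cell embryos, and 15 to 28 higher and 7 to 15 lower in morulae. Transcriptome changes were 5 to 8 from GV to MII oocytes and 4 to 6 from MII oocytes to 2-cell embryos. Polysome changes were 2 to 5, 0 to 3 and 1 to 24 from GV to MII oocytes, from MII oocytes to 2-cell embryos and from morulae to blastocysts. Enrichment changes were 1 to 5 from GV to MII oocytes, 5 to 22 from 2-cell to 8-cell embryos, 6 to 19 from 8-cell embryos to morulae and 2 to 16 from morulae to blastocysts. Polysomes against monosomes gave 0 to 1 in GV oocytes, 0 to 0 in MII oocytes and 0 to 2 in blastocysts. Fraction trends gave 3 to 10 in GV oocytes, 2 to 2 in MII oocytes, 0 to 4 in 2-cell and 0 to 1 in 8-cell embryos and 0 to 0 in blastocysts. A pool left alone is assumed to vary like the other groups.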
